A study of Mus musculus with 12 samples.

Results

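Interleukin 12, interleukin 23 and interleukin 27 are cytokines that each join a pair of different protein subunits, and the 5 genes considered here encode those subunits. They were chosen by name, Il12a, Il12b, Il23a, Il27 and Ebi3, and looked up by gene symbol or alias in the platform annotation. Of the 5 genes, 4 had a probe set carrying their symbol, out of 18193 genes measured in all. Il27 had none and was not analysed here, so the interleukin 27 pair is represented by Ebi3 alone. Il12a, Il23a and Ebi3 had a single probe set each. Il12b had a pair, of which the one with the higher mean is reported.

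RNA came from macrophages grown out of the bone marrow of C57Bl/6 mice with macrophage colony-stimulating factor (M-CSF), and all 12 cultures share that origin. The agent was lipopolysaccharide (LPS), an outer membrane component of Gram-negative bacteria that macrophages sense through Toll-like receptor 4. Restimulated cells received 100 ng/ml LPS for 18 h, new medium and a 2 h rest, and then 100 ng/ml LPS again. Pretreated cells received the same 18 h of LPS and the rest, without the last stimulation. Cells given LPS once went through 18 h without LPS and the rest before the last stimulation, and untreated cells met no LPS. For the length of the last stimulation, the age of the mice and the number of mice behind a culture, the sources used here give nothing. There were 3 biological replicates per group with the letters A, B and C, and each had 1 array. Nothing in the labels ties a letter to an animal, so p-values measure the spread between these cultures.

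Interleukin 12 consists of p35, encoded by Il12a, and p40, encoded by Il12b, and is known for driving interferon gamma production by T cells and natural killer cells. Interleukin 23 pairs the same p40 with p19, encoded by Il23a, and maintains T helper cells that make interleukin 17. Interleukin 27 pairs p28, encoded by Il27, with the product of Ebi3. The p35, p19 and p28 chains are helical cytokines, whereas p40 and the Ebi3 protein resemble soluble cytokine receptors. Macrophages are known to switch several of these genes on when Toll-like receptors are engaged.

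Array medians lay between 29.72 and 31.65 intensity units. Restimulated C stood apart in its brighter probe sets, with a mean intensity of 247 and a 75th percentile of 119.9, against means of 310.0 to 317 and 75th percentiles of 156 to 207 on the other 11 arrays. Calls that it decides are given without it as well. Of 6 macrophage markers measured, 5 exceeded 100 units on all 12 arrays, and the summed level of the 6 ran from 41495 to 55554. Conventional dendritic cells also make these cytokines. Of their 6 measured markers 5 stayed under 100 units on all 12 arrays, and the sum of the 6 was 250 to 317 in restimulated, 295 to 330 in pretreated, 225 to 275 in LPS once and 198 to 255 in untreated cultures. All 4 measured T and natural killer cell markers and all 4 measured B cell markers were under 100 units on every array. Fibroblast markers differed between letters. Their sum over 5 genes was 2415, 5278 and 233 units on restimulated A, B and C, 5190, 4948 and 260 on pretreated A, B and C, 3538, 7088 and 853 on LPS once A, B and C, and 4527, 8213 and 202 on untreated A, B and C. On LPS once C, Pdgfrb held 589 of these units, against 14.6 on untreated C. Col1a1, Col1a2, Col3a1 and Dcn had 41.2, 127, 40.2 and 56.1 units on LPS once C. Neutrophil markers summed to 2228 to 3869 in restimulated, 2370 to 4043 in pretreated, 1291 to 3068 in LPS once and 374 to 2051 in untreated cultures over 5 genes. Only 1 of them, S100a8, exceeded 100 units on every array in each group, and it made up most of each of these sums. S100a8 alone had 2076 to 3577 units in restimulated and 265 to 1662 in untreated cultures. Elane did not exceed 31.84 units on any array, Mpo 33.66, Camp 217.78 and Ltf 250.97. The part of these cells in the results below was not tested.

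The stretches of 250 bases before the annotated starts are shown because promoter elements usually lie there. A link between these sequences and the LPS responses was not tested. RefSeq (GRCm38.p6) lists a start for 3 of the 5 genes in the table used here, with 1 start for Il12b, 1 for Ebi3 and 2 for Il12a, all on the plus strand. Capitals mark matches to any of 6 motifs searched on both strands. The motifs were a Rel and NF-kappaB consensus, GAAANNGAA of interferon-stimulated elements, GGAANNGAA of joint ETS and IRF sites, which can overlap GAAANNGAA, TGANTCA of AP-1, TTGCNNAA of C/EBP factors and TATAAA.
Il12b, chr11:44399813-44400062: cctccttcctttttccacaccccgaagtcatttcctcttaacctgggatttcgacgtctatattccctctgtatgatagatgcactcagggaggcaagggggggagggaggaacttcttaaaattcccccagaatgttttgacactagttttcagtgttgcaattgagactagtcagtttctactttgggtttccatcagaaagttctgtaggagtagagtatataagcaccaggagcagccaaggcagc
Ebi3, chr17:55952373-55952622: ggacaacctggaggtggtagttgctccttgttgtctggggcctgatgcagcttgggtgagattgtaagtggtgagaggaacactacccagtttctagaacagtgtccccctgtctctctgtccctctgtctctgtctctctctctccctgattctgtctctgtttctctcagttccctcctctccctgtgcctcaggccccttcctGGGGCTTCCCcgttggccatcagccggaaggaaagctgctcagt
Il12a, chr3:68690394-68690643: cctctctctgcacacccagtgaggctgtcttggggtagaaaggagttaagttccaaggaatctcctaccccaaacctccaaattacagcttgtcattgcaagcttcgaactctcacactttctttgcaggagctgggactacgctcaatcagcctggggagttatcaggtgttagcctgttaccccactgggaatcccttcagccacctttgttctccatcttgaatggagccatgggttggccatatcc
Il12a, chr3:68691174-68691423: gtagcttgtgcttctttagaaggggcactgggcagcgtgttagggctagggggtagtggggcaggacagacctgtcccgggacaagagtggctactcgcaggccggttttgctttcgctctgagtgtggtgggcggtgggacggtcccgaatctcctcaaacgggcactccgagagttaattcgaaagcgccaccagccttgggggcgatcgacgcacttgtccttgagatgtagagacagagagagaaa

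Ebi3 held 1 match, to the Rel and NF-kappaB consensus, at bases -44 to -35 from the start. That consensus was present in 3.9% of 32851 mouse promoter stretches of the same length. The Il12b stretch and both Il12a stretches held 0 matches to the 6 motifs, which says only that these letters are not in these windows. The other 5 motifs occurred in 7.13% (GAAANNGAA), 6.99% (GGAANNGAA), 6.75% (TGANTCA), 9.56% (TTGCNNAA) and 12.4% (TATAAA) of all stretches.

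How naive macrophages regulate these genes was read from LPS once against untreated cultures. All 4 measured subunit genes rose, where 3.9% of all genes were called higher and 9.1% lower. A gene was called at a limma adjusted p under 0.05 over all genes and at least a 2-fold change, on the scale log2(intensity + 16), which understates changes of dim genes. The median change of the 4 was 2.48 on that scale, against 0.04 over all genes. In RNA from whole cultures, fewer cells of a type and less RNA per cell cannot be told apart.

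Il12b, the p40 shared by interleukins 12 and 23, had 632, 1380.1 and 2093 units in LPS once cultures A, B and C, against 10.2, 12.5 and 12.1 units in untreated cultures. The groups were far apart, and the A culture was the lowest of the stimulated ones. Il12b rose, with a change in log2(intensity + 16) of 5.49 ± 0.37 (SE, 3 arrays a group; limma adjusted p = 1.12e-05). The size of that change depends on the added 16, since the untreated values lay below the array medians, and it was 6.61 with a pseudocount of 1 and 4.10 with 64, called in both. Its other probe set gave a change of 4.94 ± 0.41 (limma adjusted p = 5.17e-05).

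Il23a, the p19 of interleukin 23, had 45.75, 245 and 587 units in LPS once cultures A, B and C, against 17.0, 17.1 and 16.7 units in untreated cultures. The groups did not overlap, but the stimulated cultures spread widely among themselves, with A again lowest and C highest. The log2 change was 2.70 ± 0.62 (SE, 3 arrays a group; limma adjusted p = 0.00801).

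Il12a, the p35 of interleukin 12, had 82.65, 151 and 236 units in LPS once cultures A, B and C, against 15.4, 17.8 and 19.02 units in untreated cultures. The groups did not overlap. Il12a rose by 2.27 ± 0.77 (SE, 3 arrays a group; limma adjusted p = 0.0456), and its call was near the threshold. It was lost without any 1 of the untreated or pretreated arrays, without LPS once B and without LPS once C, with adjusted p from 0.0579 to 0.144, and with a pseudocount of 64 (0.131) or the second probe set of each gene that has several (0.0553). On the 6 arrays of these groups alone the adjusted p was 0.00375.

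Ebi3, the receptor-like chain of interleukin 27, was already well measured before LPS. It had 4396, 3180.25 and 3475 units in LPS once cultures A, B and C, against 1418, 932 and 1199 units in untreated cultures. The groups did not overlap, and A was the highest culture in both. Ebi3 rose 3.10-fold, by 1.63 ± 0.19 (SE, 3 arrays a group; limma adjusted p = 0.00017).

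**Figure D1:**
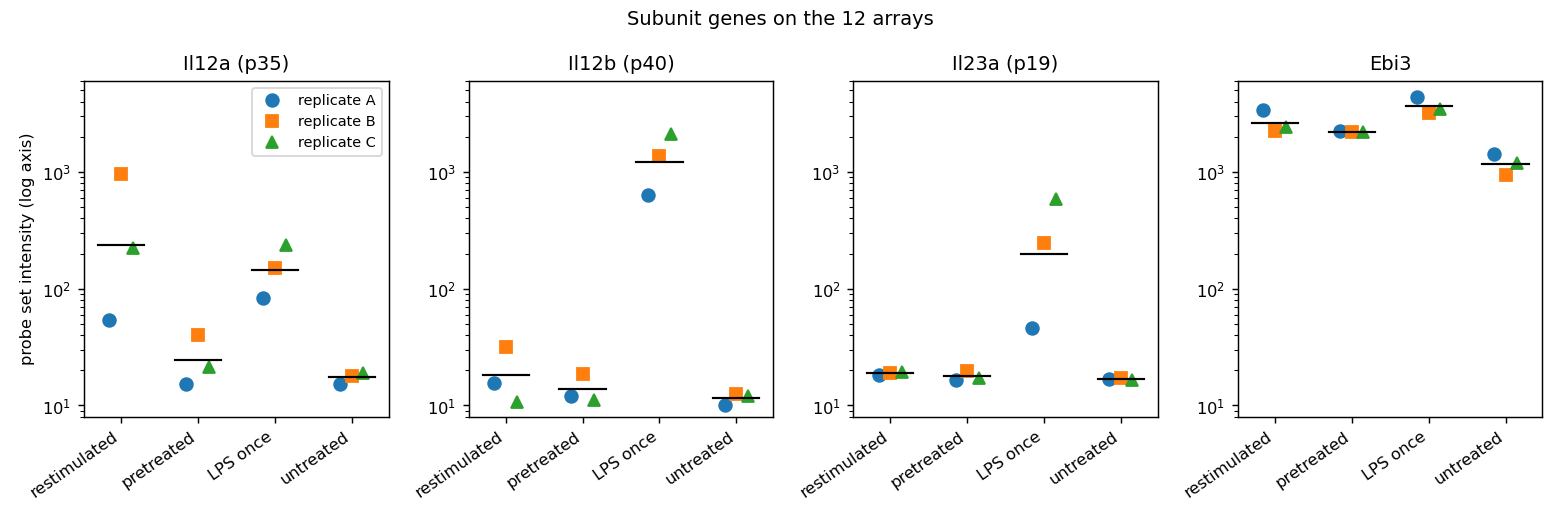
Intensity of the 4 measured subunit genes on each of the 12 arrays (log axis), with marker shape and colour for the replicate letter and a bar at the back-transformed mean of log2(intensity + 16). Il12b and Il23a lie at 45.75 units or more in LPS once cultures and at 31.5 or less elsewhere, Il12a is raised in restimulated and LPS once cultures, and Ebi3 lies at 932 units or more on every array.

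Pretreated against untreated cultures showed what remained of 18 h of LPS after the rest. Limma called 0 of the 4 subunit genes, with 1, Ebi3, higher and 0 lower at an unadjusted p under 0.05. Over all genes 0.291% were called higher and 0.308% lower, and 1056 of 18193 were higher and 1133 lower at that unadjusted p. Il12b had 12.1, 18.5 and 11.1 units in pretreated cultures A, B and C, so 2 of them lay within the range of the untreated cultures. Il23a had 16.4, 19.7 and 17.3 units and Il12a 15.1, 40.1 and 21.4 units, with pretreated B the highest culture for each of the 3 genes.

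Ebi3 had 2222, 2182 and 2205 units in pretreated cultures, all above the highest untreated culture at 1418 units. Its log2 change of 0.91 ± 0.19 (SE, 3 arrays a group; limma adjusted p = 0.0639) was under the 2-fold minimum and missed the p threshold in this fit. The limma adjusted p was 0.0091 with replicate letters as blocks and 0.0142 with array weights. It was 0.0369 after quantile normalization, 0.0385 after a filter on dim probe sets and 0.0381 with a variance trend. The change stayed under 2-fold in all of these. Without untreated B the adjusted p was 0.197.

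Set against LPS once cultures, pretreated cultures were lower in Il12b, by a log2 change of -5.38 ± 0.37 (limma adjusted p = 1.17e-05), and in Il23a, by -2.66 ± 0.62 (limma adjusted p = 0.00886). These were 2 of the 4 genes, where 4.24% of all genes were called lower and 8.87% higher. The Il23a call was lost when only the 6 arrays compared were fitted (adjusted p = 0.0611). Il12a had a log2 change of -1.996 ± 0.77 (limma adjusted p = 0.0818), not called in this fit. It was called under 7 of 21 alternatives, among them replicate letters as blocks (limma adjusted p = 0.042). Ebi3 had a log2 change of -0.72 ± 0.19 (limma adjusted p = 0.015), under the 2-fold minimum.

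The second response to LPS was read from restimulated against pretreated cultures. Limma called 0 of the 4 genes, where 0.665% of all genes were called higher and 1.29% lower. At an unadjusted p under 0.05, 1 of the 4 was higher, Il12a, and 0 were lower. Among all 18193 genes, 822 were higher and 2779 lower at that p. The median change of the 4 was 0.23, against -0.02 over all genes.

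Il12b had 15.5, 31.5 and 10.7 units in restimulated cultures A, B and C, against 12.1, 18.5 and 11.1 units in pretreated cultures. The groups overlapped, and B was the highest culture of each. The log2 change was 0.20 ± 0.37, with a 95% interval of -0.62 to 1.02, so a rise of the size seen in naive cells lay outside it.

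Il23a had 18.3, 18.8 and 19.4 units in restimulated cultures A, B and C, against 16.4, 19.7 and 17.3 units in pretreated cultures. These values overlapped and lay below the median of every array. The log2 change was 0.05 ± 0.62, with a 95% interval of -1.34 to 1.43. That interval uses a spread shared by all groups. The SD of Il23a on the log2 scale was 0.0238 in restimulated and 0.0711 in pretreated, but 1.66 in LPS once cultures. The interval is therefore wider than the restimulated and pretreated cultures alone would give.

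Il12a had 53.5, 952 and 223 units in restimulated cultures A, B and C, against 15.1, 40.1 and 21.4 units in pretreated cultures. The groups did not overlap, and within each letter the restimulated culture was higher, but the restimulated cultures spread from 53.5 to 952 units. The log2 change was 2.65 ± 0.77, with a 95% interval of 0.93 to 4.36, and it was not called (limma adjusted p = 0.0891). It was called without restimulated A (3.58, adjusted p = 0.0271) and after a filter on dim probe sets (adjusted p = 0.0415), and was 1.68 without restimulated B (adjusted p = 0.0895) and 2.69 without restimulated C (adjusted p = 0.189).
The summed fibroblast markers, given above, were highest on restimulated B and lowest on restimulated C, whereas Il12a was highest on B and lowest on A. The part of those cells in the spread of Il12a was not tested.

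Ebi3 had 3361, 2255 and 2421 units in restimulated cultures A, B and C, against 2222, 2182 and 2205 units in pretreated cultures. The groups did not overlap, though restimulated B exceeded the highest pretreated culture by little. The log2 change was 0.26 ± 0.19, with a 95% interval of -0.16 to 0.68.

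A lost response was tested as the second response minus the first. Of the 4 genes, 2 had a smaller second response, where 1.44% of all genes were called lower in this comparison and 1.23% higher. At an unadjusted p under 0.05, 3 were lower, where 1629 of all 18193 genes were lower and 1549 higher. The median difference of the 4 was -2.01, against -0.02 over all genes.

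Il12b changed by 0.20 on restimulation and by 5.49 in naive cells, a difference of -5.29 ± 0.52 (SE, 3 arrays a group; limma adjusted p = 0.00142), and its other probe set gave -4.90 ± 0.58 (limma adjusted p = 0.00425). Ebi3 changed by 0.26 on restimulation and by 1.63 in naive cells, a difference of -1.37 ± 0.26 (SE, 3 arrays a group; limma adjusted p = 0.0231). The starting level of Ebi3 was part of that difference, being 0.91 ± 0.19 higher in pretreated than in untreated cultures (not called). After LPS, the log2 change of Ebi3 in restimulated against LPS once cultures was -0.47 ± 0.19 (not called), and that of Il12b -5.18 ± 0.37. The call of the Ebi3 difference of responses was lost without untreated B (adjusted p = 0.051), untreated C (0.0617), pretreated B (0.0556) and pretreated C (0.0531).

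Il23a changed by 0.05 on restimulation and by 2.70 in naive cells, a difference of -2.65 ± 0.87 (SE, 3 arrays a group; limma adjusted p = 0.145). That difference was not called, although its 95% interval of -4.61 to -0.70 left out 0. It was called without LPS once A, the stimulated culture with the lowest Il23a (-3.55, adjusted p = 0.00231), and with array weights (-3.03, adjusted p = 0.0188).

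Il12a changed by 2.65 on restimulation and by 2.27 in naive cells, a difference of 0.38 ± 1.08 (SE, 3 arrays a group; limma adjusted p = 0.922). The 95% interval of -2.05 to 2.81 was wide enough to hold either a large loss or a large gain of response. Without restimulated B the difference was -0.59 (adjusted p = 0.75).

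**Figure D2:**
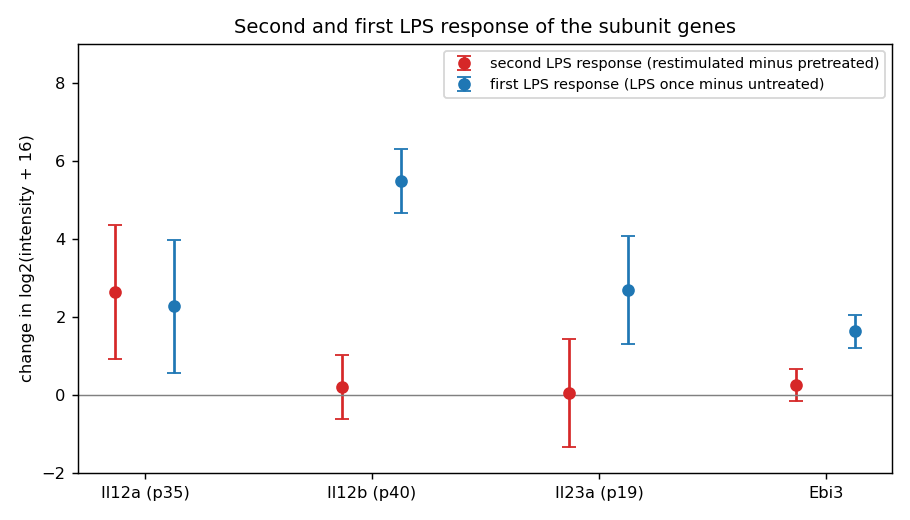
Second (restimulated minus pretreated) and first (LPS once minus untreated) LPS response of each subunit gene, as the change in log2(intensity + 16) with limma's 95% interval, n = 3 per group. The intervals of both responses lie far apart for Il12b and do not meet for Ebi3, and those of Il12a overlap almost fully.

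The subunit genes were also compared with each other, through the difference of 2 genes within each array, in 6 pairs. For Il12a and Il12b, which together make interleukin 12, the second minus first response was 5.67 ± 0.96 higher in Il12a (SE, 95% interval 3.46 to 7.88). For Il23a and Il12b, which together make interleukin 23, it was -2.64 ± 0.53 in Il12b relative to Il23a (95% interval -3.87 to -1.41), on a scale that understates the change of the dimmer gene. Il12b relative to Ebi3 had -3.92 ± 0.75 (95% interval -5.65 to -2.19). The first responses of Il12b, Il23a and Ebi3 were 5.49, 2.70 and 1.63, and their second responses 0.20, 0.05 and 0.26. A gene with a larger first response had more to lose. The pairs of Il12b with Il23a and Ebi3 therefore do not compare the share of the response that was lost.

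Between Il12a and Il23a the difference was 3.03 ± 1.25 (95% interval 0.15 to 5.92), and its interval took in 0 under 12 of 17 alternatives, among them the fit with replicate letters as blocks (-0.17 to 6.24). The intervals of the remaining pairs took in 0, with 1.75 ± 1.40 for Il12a minus Ebi3 (-1.47 to 4.98) and -1.28 ± 1.11 for Il23a minus Ebi3 (-3.83 to 1.27). The Il12a minus Ebi3 interval left out 0 without restimulated A (2.86, 0.56 to 5.16), and the Il23a minus Ebi3 interval without LPS once A (-2.31, -3.40 to -1.22). An exact two-sided permutation test of the within-array difference in restimulated against LPS once cultures gave p = 0.1 for 4 pairs, the smallest p that 3 against 3 arrays allow, 0.5 for Il12a with Ebi3 and 0.3 for Il23a with Ebi3. These intervals use 1 spread for all groups, while the SD of Il23a on the log2 scale was 0.0238 in restimulated, 0.0711 in pretreated, 1.66 in LPS once and 0.00938 in untreated cultures.

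**Figure D3:**
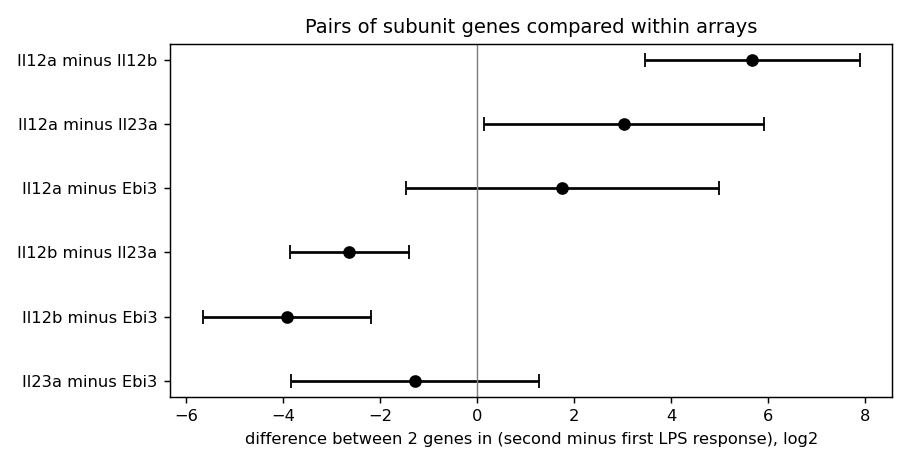
Difference between 2 subunit genes in the second minus first LPS response, in log2 units, with 95% intervals from a fit on all 12 arrays. The pairs of Il12b with Il12a, Il23a and Ebi3 have intervals clear of 0, and that of Il12a minus Il23a begins at 0.15.

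Levels after LPS were set side by side in restimulated against LPS once cultures. Il12b had 15.5, 31.5 and 10.7 units in restimulated cultures, against 632, 1380.1 and 2093 units after LPS once, a log2 change of -5.18 ± 0.37 (limma adjusted p = 6.22e-05). Il23a had 18.3, 18.8 and 19.4 units in restimulated cultures, against 45.75, 245 and 587 units after LPS once, a change of -2.62 ± 0.62 (limma adjusted p = 0.0196). These were 2 of the 4 genes, where 3.18% of all genes were called lower and 2.48% higher. The Il23a call was lost without LPS once B (adjusted p = 0.0645), restimulated A (0.0501) and restimulated B (0.0521), and on the 6 arrays alone (0.145).

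Il12a and Ebi3 were not called in that comparison. The ranges of Il12a overlapped, 53.5 to 952 units in restimulated and 82.65 to 236 units in LPS once cultures, with a log2 change of 0.65 ± 0.77 (limma adjusted p = 0.657) that turned to -0.32 without restimulated B (adjusted p = 0.757). Ebi3 overlapped as well, at 2255 to 3361 units in restimulated and 3180.25 to 4396 units in LPS once cultures, with a change of -0.47 ± 0.19 (limma adjusted p = 0.138). Within each of the 3 letters Ebi3 was lower in the restimulated culture, by log2 differences of -0.39, -0.49 and -0.52. With replicate letters as blocks its limma adjusted p was 0.0271, and the change stayed under the 2-fold minimum.

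Against untreated cultures, restimulated cultures were higher in Il12a, by 2.92 ± 0.77 (limma adjusted p = 0.031), and in Ebi3, by 1.17 ± 0.19 (limma adjusted p = 0.00447). These were 2 of the 4 genes, where 1.36% of all genes were called higher and 3.9% lower. The Il12a call was lost without any 1 of the untreated arrays or restimulated C, with adjusted p from 0.0711 to 0.0864, with a pseudocount of 64 (0.0658), with array weights (0.0571) and on the 6 arrays alone (0.12). Ebi3 fell just under the 2-fold minimum without restimulated A (0.99, adjusted p = 0.0112). Il12b and Il23a had changes of 0.31 ± 0.37 and 0.08 ± 0.62, with limma adjusted p of 0.57 and 0.939.

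Across the 4 groups, the mean log2 level of Il12b was 5.09 ± 0.43 in restimulated, 4.89 ± 0.19 in pretreated, 10.28 ± 0.86 in LPS once and 4.78 ± 0.07 in untreated cultures (SD, n = 3). LPS once stood highest, and none of the differences among the remaining 3 groups was called. Il23a had the same arrangement, at 5.12 ± 0.02, 5.08 ± 0.07, 7.74 ± 1.66 and 5.04 ± 0.01 in restimulated, pretreated, LPS once and untreated cultures (SD, n = 3). Il12a averaged 7.98 ± 1.90 in restimulated, 5.33 ± 0.43 in pretreated, 7.33 ± 0.68 in LPS once and 5.06 ± 0.08 in untreated cultures (SD, n = 3), with no call between restimulated and LPS once or between pretreated and untreated cultures. Ebi3 averaged 11.37 ± 0.31 in restimulated, 11.12 ± 0.01 in pretreated, 11.84 ± 0.24 in LPS once and 10.21 ± 0.30 in untreated cultures (SD, n = 3), and from the highest group to the lowest, LPS once, restimulated, pretreated and untreated, none of the adjacent groups was called different.

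The receptor chains for these cytokines were mostly dim in the cultures. Of 5 listed, 4 were measured, and limma called 0 in either direction in the second and in the first response. At an unadjusted p under 0.05, 0 changed in either direction in the second response, and 1 was higher and 0 lower in the first. Over all genes 0.665% were called higher and 1.29% lower in the second response, and 3.9% and 9.1% in the first. At the unadjusted p, 822 of 18193 genes were higher and 2779 lower in the second response, and 3551 and 4357 in the first. Il12rb1 and Il12rb2, the chains of the interleukin 12 receptor, stayed between 20.4 and 40.5 units and between 15.98 and 26.8 units over the 12 arrays, and Il27ra, the specific chain for interleukin 27, between 16.4 and 38.4 units. Il6st, the gp130 chain that interleukin 27 shares with interleukin 6, had 170, 225 and 103 units in restimulated cultures A, B and C, against 316, 462 and 308 units after LPS once. It was called lower, by -1.09 ± 0.24 (limma adjusted p = 0.0148), the 1 receptor chain called there, where 3.18% of all genes were called lower and 2.48% higher. The count of called chains became 0 under 6 of 21 alternatives, among them without restimulated C and without LPS once B.

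Among 5 measured kinases and STAT factors of receptor signalling, 1 rose in the second response and 2 rose in the first, with medians of -0.10 and 0.34. Over all genes 0.665% were called higher in the second response and 3.9% in the first. Jak2, a kinase bound to interleukin 12 and 23 receptors, rose by 1.79 ± 0.30 on restimulation (limma adjusted p = 0.0137) and by 3.19 ± 0.30 in naive cells (limma adjusted p = 5.65e-05). Its second response lost the call without pretreated C and on the 6 arrays alone. Without LPS once B, 1 gene of this list was called in the first response. Stat3, activated by interleukins 23 and 27, rose by 1.13 ± 0.19 in naive cells (limma adjusted p = 0.00147) and had a second response of -0.10 ± 0.19, a difference of -1.24 ± 0.27 (limma adjusted p = 0.0371). Stat3 was the 1 gene of this list called for that difference, where 1.44% of all genes were called lower and 1.23% higher. The count of 1 changed under 11 of 20 alternatives. Among these, it became 2 in the fit with replicate blocks and 0 without any 1 of the untreated arrays, LPS once A or B, pretreated B or C, or restimulated B.

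Of 9 measured factors that activate subunit genes, 1 rose and 1 fell in the second response, and 3 rose and 1 fell in the first, with medians of 0.42 and 0.66. Over all genes 0.665% were called higher and 1.29% lower in the second response, and 3.9% and 9.1% in the first. Rel, the NF-kappaB family member required for Il12b in mouse macrophages, had 145, 138 and 115 units in restimulated cultures, against 57.6, 76.6 and 84.7 units in pretreated cultures. It had 658, 834 and 1231 units after LPS once, against 69.7, 82.1 and 88.9 units in untreated cultures. Its second response of 0.75 ± 0.21 was not called (limma adjusted p = 0.0781), its first was 3.22 ± 0.21, and the difference was -2.47 ± 0.29 (limma adjusted p = 0.00311).

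Irf1, an interferon regulatory factor that acts on Il12a and Il12b, had a second response of -0.09 ± 0.28 and a first of 1.89 ± 0.28, a difference of -1.98 ± 0.39 (limma adjusted p = 0.0263). Nfkbiz, an IkappaB-like coactivator of Il12b, rose in both, by 2.44 ± 0.26 on restimulation (limma adjusted p = 0.00293) and by 1.99 ± 0.26 in naive cells (limma adjusted p = 0.000319). Irf8, which acts on Il12b in mouse macrophages, fell in both, with a log2 change of -1.21 ± 0.24 on restimulation (limma adjusted p = 0.0262) and of -1.84 ± 0.24 in naive cells (limma adjusted p = 0.000356). Without pretreated A, pretreated C, restimulated A or restimulated C, 0 activators were called lower in the second response, and on the 6 arrays alone 0 were called in either direction. Rel and Irf1 were the 2 activators whose responses were called different, both lower, where 1.44% of all genes were called lower and 1.23% higher. That count was 1 without any 1 of untreated A, B or C, LPS once B or C, pretreated A or B, or restimulated B.

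Among 6 measured genes that restrain the subunit genes, 0 were called in the second response, with 1 lower and 0 higher at an unadjusted p under 0.05, and 3 rose in the first response. The medians of the 6 were -0.03 and 1.29. Over all genes 0.665% were called higher and 1.29% lower in the second response, and 3.9% and 9.1% in the first. At the unadjusted p, 2779 of 18193 genes were lower and 822 higher in the second response. Nfil3, a repressor of Il12b in mouse macrophages, had 89.4, 151 and 98.9 units in restimulated cultures, against 181, 292 and 168 units in pretreated cultures. Its second response was -0.82 ± 0.37 (limma adjusted p = 0.25), its first 2.69 ± 0.37 (limma adjusted p = 0.000444), and the difference -3.52 ± 0.52 (limma adjusted p = 0.00796). Il10, the cytokine that dampens Il12b transcription, had a difference of -5.40 ± 0.30 (limma adjusted p = 2.77e-05). Bcl3, an IkappaB-family protein that holds inflammatory promoters back, rose by 2.21 ± 0.34 in naive cells, with a second response of 0.53 ± 0.34 and a difference that was not called (-1.68 ± 0.48, limma adjusted p = 0.0971). After LPS, restimulated cultures were lower than LPS once cultures in 3 of the 6, Il10, Nfil3 and Bcl3, where 3.18% of all genes were called lower and 2.48% higher.

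**Figure D4:**
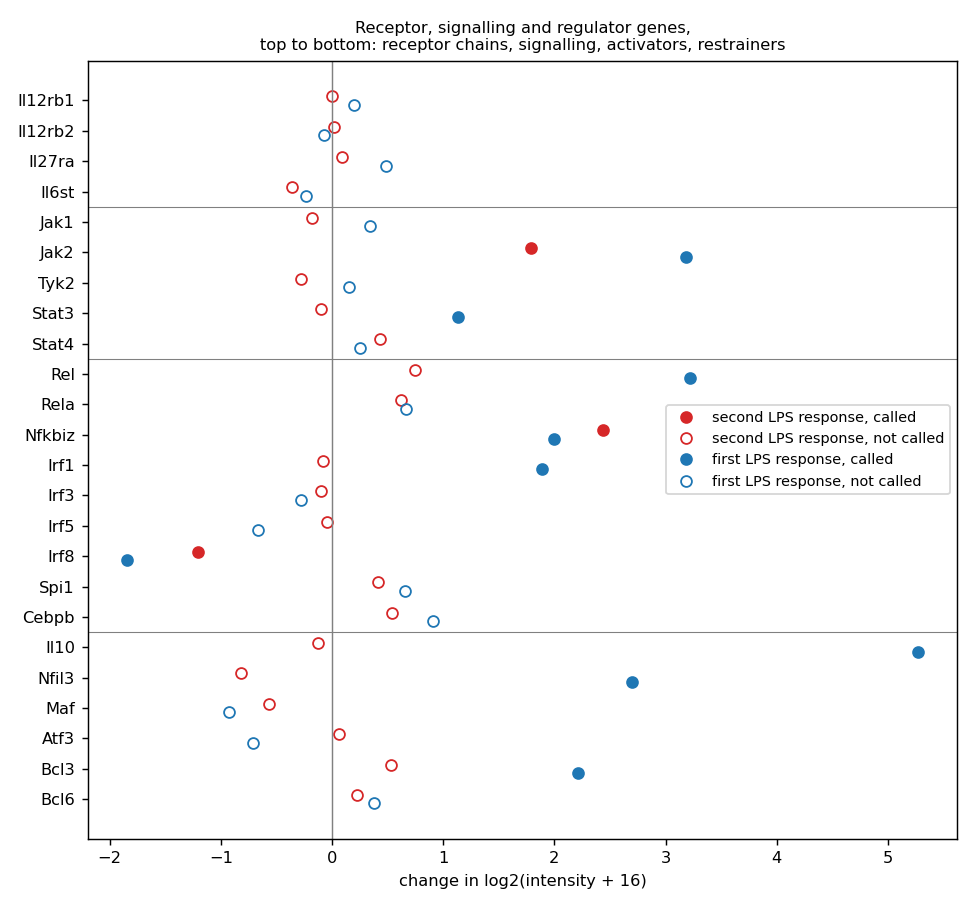
Second and first LPS response of 24 measured receptor, signalling, activator and restrainer genes, as the change in log2(intensity + 16), with filled points for called genes. Stat3, Rel, Irf1, Il10, Nfil3 and Bcl3 have filled points for the first response only, while Jak2, Nfkbiz and Irf8 have filled points for both.

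Genes whose level followed a subunit gene most closely were taken as the 3 with the highest Pearson correlation of log2 values over the 12 arrays, among 2142 genes that spanned 2 or more log2 units. The 12 arrays fall into 4 groups and share letters, so these values describe likeness and carry no test. For Il12b they were Plat, which encodes tissue plasminogen activator (r = 0.995), the matrix protease gene Adamts4 (r = 0.992) and Shisa3 (r = 0.99). Plat had mean log2 levels of 5.44 in restimulated, 5.29 in pretreated, 9.07 in LPS once and 5.24 in untreated cultures. For Il23a they were Csf2, which encodes granulocyte-macrophage colony-stimulating factor (r = 0.994), Il1bos, an opposite-strand transcript at the Il1b gene (r = 0.986), and the small GTPase gene Gem (r = 0.979). Csf2 had mean log2 levels of 5.68, 5.45, 8.91 and 5.17 in restimulated, pretreated, LPS once and untreated cultures.

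For Ebi3 the nearest genes were Oasl1 (r = 0.942), the antiviral gene Rsad2 (r = 0.935) and the transcription factor gene Batf2 (r = 0.931), all 3 of them known as interferon-induced. Oasl1 had mean log2 levels of 9.63, 9.37, 11.50 and 6.31 in restimulated, pretreated, LPS once and untreated cultures. For Il12a they were Trip13 (r = 0.88), the integrin gene Itgb8 (r = 0.874) and the neutrophil-attracting chemokine gene Cxcl1 (r = 0.86), so likeness was lower for Il12a than for the other 3 genes. Itgb8 had mean log2 levels of 8.86, 5.23, 9.14 and 4.71 in restimulated, pretreated, LPS once and untreated cultures.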

How the data were processed

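The authors deposited linear intensities, with 1 value for each probe set on an array. Which program, background correction and scaling made them the sources used here do not say, and no detection calls were used. Per the labels' protocols, RNA was isolated with TriFast and labelled by the standard procedure of Affymetrix. Of 45101 probe sets, 34945 had 1 gene symbol in the platform annotation, 932 several and 9160 none, and 64 were controls. Symbols were updated by Entrez identifier through RefSeq's gene table of GRCm38.p6, which matched 34741 probe sets. Each gene was represented by that probe set of a single symbol whose mean log2 value over all arrays was highest.

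Values were used as log2(intensity + 16). Limma 3.58.1 in R 4.3.3 fitted the 4 group means on all 12 arrays without a block, with 8 residual and 1.71 prior degrees of freedom, and p-values were adjusted by the Benjamini-Hochberg method over all 18193 genes of each of 7 contrasts. The script was tested on simulated data. Differences between subunit genes were fitted by least squares, with 95% intervals.

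The replicate letters were checked for pairing. Deviations from group means correlated at r = 0.25 to 0.656 in 18 same-letter pairs and at -0.482 to 0.0134 in 36 pairs of different letters. Deviations within a group add up to 0, so positive same-letter values push those of different letters below 0. The range for different letters is therefore no separate evidence. From the same-letter values, the letters were taken to pair the cultures. Values in the text ignore this pairing unless stated, and the blocked fit is an alternative. For the difference of responses, the blocked limma adjusted p was 0.0053 for Ebi3, 0.00194 for Il12b, 0.125 for Il23a and 0.88 for Il12a.

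The text names the 5 subunit genes, called members of 4 lists of receptor, signalling, activating and restraining genes, up to 2 further members with the largest changes, and the 3 genes most like each subunit gene in level. The subunit genes and the lists were chosen with earlier results of these data known. Il23r and Nfkb1 were listed but not analysed here. Alternatives were pseudocounts of 1 and 64, quantile normalization, a filter at 64 units on at least 3 arrays, array weights, a variance trend, the second probe set of a gene, the compared groups alone, and each array left out.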

Additional observations from a re-analysis of the deposited data

Results flagged for a closer look

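The response to the second LPS differed from the response to the first for Il12b and Ebi3, by the test of the difference itself. For Il12b the second response was lower by a log2 difference of -5.29 (limma adjusted p = 0.00142), with 3 of 3 letters showing that direction. For Ebi3 it was lower by -1.37 (limma adjusted p = 0.0231), again in 3 of 3 letters. The level after LPS, restimulated against LPS once, was not called different for Ebi3 (-0.47), whereas it was for Il12b (-5.18). Ebi3 started from a level 0.91 higher in pretreated than in untreated cultures, which was not called.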

How the results depend on the processing

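The 4 subunit genes in 7 contrasts were refitted 577 times in all, of which 532 kept direction and side of the threshold, 27 lost a call, 11 gained one and 7 turned sign. With the replicate block, the numbers of subunit genes called stayed at 4 in the first response, 0 in the second, 2 in the difference of responses and 2 in the level after LPS, and Il12a was called lower in pretreated than in LPS once cultures (-1.996, adjusted p = 0.042). The blocked fit changed no other call of a subunit gene, and it widened the interval of Il12a minus Il23a to take in 0. The second response had 1 called gene after the filter on dim probe sets, Il12a, and 0 to 1 when an array was left out. The difference of responses had 1 to 3 without an array, with 3 without LPS once A. The level after LPS had 1 after the filter, which removed Il23a, 1 on the compared groups alone, and 1 to 2 without an array. Restimulated against untreated had 1 with a pseudocount of 64, 1 with array weights, 1 on the compared groups alone, and 1 to 2 without an array.

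Signs turned for 4 uncalled values. Il23a in pretreated against untreated cultures was -0.00427 after quantile normalization and -0.00254 to 0.0666 without an array. The second response of Il12b was -0.0363 to 0.38 without an array. The Il12a difference of responses was -0.53 with array weights and -0.59 to 1.31 without an array, and its level after LPS was -0.31 with array weights and -0.32 to 1.58 without an array. The cause was not tested. Array weights gave restimulated C a weight of 0.138, the lowest of the 12.

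Precision is limited by 3 arrays per group and by values of Il12b and Il23a near or below the array medians outside LPS once cultures.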
